A study of Mus musculus with 12 samples.

Results

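Kcnk9, Kcnk2, Rgs4, Nrxn3 and Grin2c are genes of neuronal excitability and of the synapse whose names stand in the authors' deposited short lists for Ercc1-/- mice (KO) against Ercc1+/+ mice (WT). They are 5 genes, measured by 6 named probe sets out of 45037 on the array, since Nrxn3 has 2. These are called the brighter and the dimmer one, which says nothing of amounts of RNA. Kcnk9, Kcnk2 and Rgs4 were listed as higher in KO cerebellum (with 0.593% of all probe sets), and Grin2c and both probe sets of Nrxn3 as lower in KO hippocampus (with 0.338%). The members were thus selected on the KO and WT intensities of 1 region, by the authors' fold and p. In the region of its list each probe set is therefore described without a test, and the other region is the comparison that did not choose it. Absence from the list of that other region is also a selection on its intensities, against large differences with a low p. The file names the Kcnk9 probe set by an older identifier, A930009L07Rik, which RefSeq gives as a synonym of Kcnk9. The sources used here do not say where in its gene a probe set lies.

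Hippocampus and cerebellum of littermates, crosses of FVB with C57BL/6, were collected at postnatal day 21, and the total RNA of every sample was labelled for an Affymetrix mouse expression array. Per the design text 3 mice of each genotype gave both regions, but no label says which arrays share a mouse. The 4 groups of 3 arrays are KO hippocampus, WT hippocampus, KO cerebellum and WT cerebellum. Ercc1 forms a nuclease with Xpf that cuts DNA during nucleotide excision repair and crosslink repair, and mice without it are small and short-lived. The deletion is carried by every cell of the body, so neurons, glia and peripheral organs all lack the protein.

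Kcnk9 (TASK-type) and Kcnk2 (TREK-type) encode potassium leak channels, which are open near the resting potential and hold neurons away from firing; Kcnk9 is known for its expression in cerebellar granule cells, and Kcnk2 also occurs in astrocytes. Rgs4 is a regulator of G-protein signalling that speeds the return of Gi and Gq proteins to their inactive state, so it shortens signals from metabotropic receptors. Nrxn3 is a presynaptic neurexin, an adhesion molecule that binds neuroligins and other partners across the synaptic cleft. Grin2c is a subunit of the NMDA receptor that appears in maturing cerebellar granule cells, and in the forebrain its transcript is found mainly in astrocytes.

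Rgs4 has the largest regional ratio of the members (below), and it has 1 start in the RefSeq promoter table of build GRCm38.p6, so the 250 bases before that start are shown. The gene lies on the minus strand, and the window, at chr1:169747643-169747892, lies wholly outside its annotated span. It is written 5′ to 3′ along the gene, and capitals mark the TATA box (TATAAA) and the cyclic AMP response element half-site (TGACG), which were searched on both strands together with the GC box (GGGCGG).
Rgs4: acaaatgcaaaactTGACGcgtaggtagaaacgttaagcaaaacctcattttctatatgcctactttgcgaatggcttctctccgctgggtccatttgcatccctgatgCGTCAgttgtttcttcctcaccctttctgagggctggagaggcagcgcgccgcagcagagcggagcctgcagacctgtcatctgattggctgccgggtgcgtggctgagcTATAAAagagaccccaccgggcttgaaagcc
The Rgs4 window held 1 TATA box and 2 half-sites, of which the later is on the opposite strand, and no GC box. Of 32851 promoter windows of the same length, 12.4% held a TATA box, 32.7% a GC box and 17.8% a half-site. These are matches of letters only. The window of Grin2c held 3 GC boxes, but its 54 bases nearest to the start, which hold all 3, lie inside the annotated span of Grin2c. The windows at the 4 starts of Kcnk2 and the 3 of Nrxn3 lie wholly inside their genes, and 1 of Kcnk2 held a GC box.

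Array medians were 160.2 to 168.2 intensity units for hippocampus and 154.4 to 168.2 for cerebellum, and precision is limited by the number of arrays. For Ercc1 the KO arrays were all below the WT arrays in both regions, at 0.307 times the WT mean in hippocampus and 0.375 times in cerebellum, where it missed the filter on dim probe sets. Neurod1, a granule cell marker, averaged 7523 in KO and 7444 in WT cerebellum, and 1658 in KO and 1236 in WT hippocampus. It was thus brighter in the tissue labelled cerebellum. Of 14 pyramidal neuron markers 0 had a name here. Within genotypes, 69.7% of the remaining variation in hippocampus fell on 1 component, which set KO 1, KO 3 and WT 1 apart from the other arrays. The like component of cerebellum held 49.5%. The Gapdh control probe sets gave a 3′ over 5′ ratio of 1.497 for KO 1 of cerebellum, with 0.999 to 1.202 for the rest of that region.

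No probe set passed the threshold of an adjusted p of 0.05 by limma in either region (0%, 0 of 27022 in each), and 3.71% in hippocampus and 4.33% in cerebellum had an unadjusted p under 0.05. For the regional difference of the KO effect 0.00429% passed. The values below are therefore given as differences. All fold changes on the log2 scale are of log2(intensity + 32), KO minus WT, and understate the change of dim probe sets. In these bulk samples fewer cells of a type and less RNA per cell cannot be told apart.

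**Figure D1:**
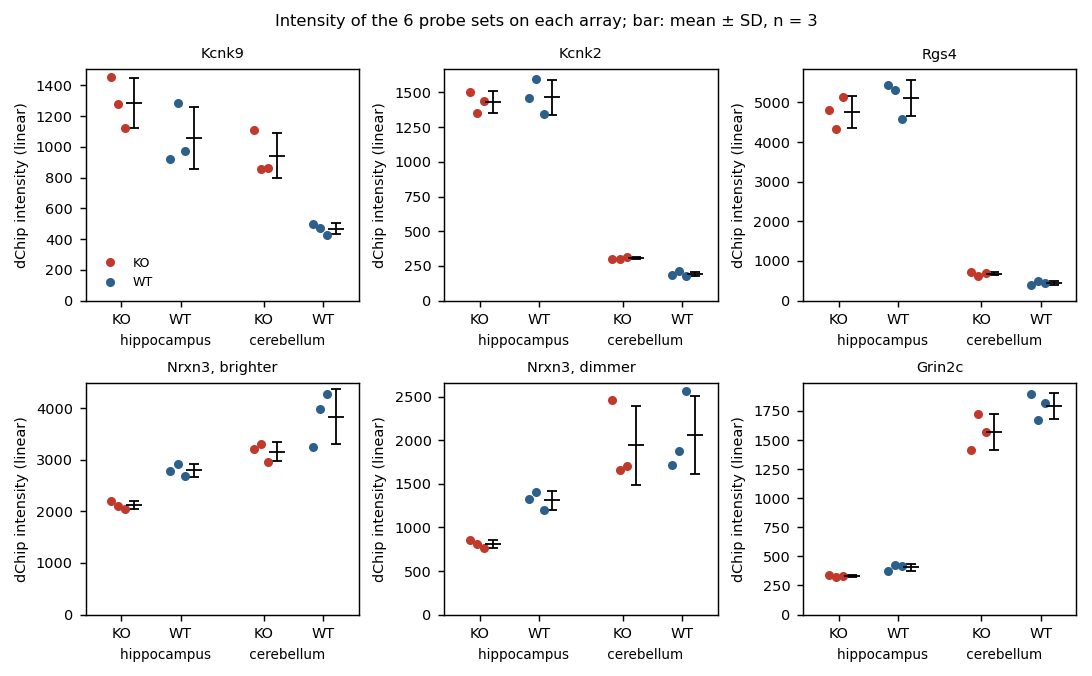
Intensity (linear, from 0) of each of the 6 probe sets on all 12 arrays, with KO left of WT in each region; points are arrays and the bar is the mean ± SD of 3. KO cerebellum lies above WT cerebellum for Kcnk9, Kcnk2 and Rgs4, and KO hippocampus below WT hippocampus for both probe sets of Nrxn3 and for Grin2c.

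Of the leak channels, Kcnk9 had intensities of 1109, 854.9 and 864.6 in KO cerebellum, against 498.8, 473.9 and 427.4 in WT cerebellum. Every KO array was above every WT array, with 2.02 times the WT mean and a log2 difference of 0.96 ± 0.13 (SE), which lies at percentile 99.9 of all probe sets tested. This is the contrast in which the probe set was listed, and the authors' deposited table gives it a fold of 2.02 and a p of 0.0236. The highest KO value belongs to KO 1, the array with the high Gapdh ratio; without that array the log2 difference was 0.84.

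In hippocampus, which did not choose it, Kcnk9 had 1453, 1281 and 1124 in KO and 918.1, 1288 and 971.3 in WT. The groups overlapped through WT 2, which stood with the KO arrays. The log2 difference was 0.28 ± 0.15 (SE, n = 3 per group; adjusted limma p = 0.9999; exact permutation p = 0.3, two-sided), at percentile 97.7 of all probe sets. Within the 2 sides of the hippocampus component it was 0.46 (KO 1 and KO 3 against WT 1) and 0.19 (KO 2 against WT 2 and WT 3).

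Kcnk2 had 298.9, 302.9 and 314.3 in KO cerebellum, against 187.8, 209.9 and 176.7 in WT cerebellum. The KO arrays lay close together and all above the WT arrays, at 1.595 times the WT mean and a log2 difference of 0.60 ± 0.10 (SE, percentile 99.6). The authors' deposited table lists it with a fold of 1.59 and a p of 0.00226. In hippocampus the intensities were 1504, 1349 and 1437 in KO and 1460, 1596 and 1342 in WT. There the ranges of KO and WT almost coincided, and the log2 difference was -0.03 ± 0.10 (SE, n = 3 per group; adjusted limma p = 0.9999; exact permutation p = 0.8, two-sided).

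Rgs4 repeated the regional picture of Kcnk2. It had 716.8, 628.8 and 700.6 in KO cerebellum, against 400.7, 489.2 and 438.2 in WT cerebellum. No arrays overlapped, the ratio of means was 1.54 and the log2 difference 0.59 ± 0.11 (SE, percentile 99.6). The authors' deposited table lists it with a fold of 1.54 and a p of 0.00305. In hippocampus Rgs4 had 4813, 4320 and 5145 in KO and 5434, 5322 and 4578 in WT, with overlapping groups and a log2 difference of -0.10 ± 0.10 (SE, n = 3 per group; adjusted limma p = 0.9999; exact permutation p = 0.4, two-sided).

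Without KO 1 the cerebellar log2 differences were 0.61 for Kcnk2 and 0.56 for Rgs4, near those over all arrays. Within the 2 sides of the cerebellum component (KO 2 and KO 3 against WT 2, and KO 1 against WT 1 and WT 3) they were 0.82 and 1.21 for Kcnk9, 0.49 and 0.63 for Kcnk2 and 0.42 and 0.73 for Rgs4.

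The 2 probe sets of Nrxn3 were both listed in hippocampus. For the dimmer one the intensities were 852.6, 812.3 and 761.1 in KO hippocampus, against 1333, 1407 and 1198 in WT hippocampus. The KO arrays were all below the WT arrays, at 0.616 times the WT mean and a log2 difference of -0.68 ± 0.10 (SE, percentile 0.1). For the brighter one they were 2198, 2110 and 2045 in KO hippocampus, against 2780, 2923 and 2675 in WT hippocampus. Here too the groups were apart, at 0.758 times the WT mean and a log2 difference of -0.39 ± 0.07 (SE, percentile 1.1). The authors' deposited table gives signed folds of -1.63 and -1.32, with p of 0.00704 and 0.00373. Within the 2 sides of the hippocampus component the differences were -0.70 and -0.66 for the dimmer one and -0.39 and -0.40 for the brighter one, and each side has a single array of 1 genotype.

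In cerebellum, which did not list them, both probe sets of Nrxn3 had negative differences. For the brighter one the intensities were 3205, 3302 and 2954 in KO and 3241, 3982 and 4272 in WT. WT 1 lay among the KO arrays, and the log2 difference was -0.27 ± 0.11 (SE, n = 3 per group; unadjusted limma p = 0.0433; adjusted p = 0.997; exact permutation p = 0.2, two-sided). For the dimmer one they were 2467, 1661 and 1702 in KO and 1723, 1884 and 2566 in WT. KO 1 and WT 3 stood high together, and the log2 difference was -0.08 ± 0.19 (adjusted limma p = 0.997; exact permutation p = 0.5). Without KO 1 it was -0.27, without WT 3 it was 0.08, and it was 0.02 without KO 2, so its sign rests on single arrays.

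Grin2c had 339.9, 319.2 and 328.2 in KO hippocampus, against 373.8, 428.4 and 413.6 in WT hippocampus. The KO arrays were all lower, at 0.812 times the WT mean and a log2 difference of -0.27 ± 0.09 (SE, percentile 3.2). The authors' deposited table gives a signed fold of -1.23 and a p of 0.0400, which puts it, among the 6 probe sets, nearest to the edge of the list, whose smallest fold is 1.2 and largest p 0.0498. Within the sides of the hippocampus component the log2 difference was -0.15 (KO 1 and KO 3 against WT 1) and -0.37 (KO 2 against WT 2 and WT 3). No probe set of these genes just outside that edge could be named. In cerebellum Grin2c had 1414, 1725 and 1566 in KO and 1894, 1669 and 1819 in WT, with KO 2 above WT 2. The log2 difference there was -0.19 ± 0.10 (SE, n = 3 per group; adjusted limma p = 0.997; exact permutation p = 0.2, two-sided). It was -0.12 without KO 1.

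Across the 6 comparisons of a member in the region that did not list it, 0 passed limma and 0 had KO and WT groups apart. Over all probe sets tested, KO was above WT on every array for 4.48% and below for 4.44% in hippocampus, and for 5.3% and 4.17% in cerebellum. An unadjusted p under 0.05 was reached by 0 of the 3 members tested so in hippocampus and 1 of 3 in cerebellum (the brighter Nrxn3 probe set). The smallest exact p that 3 against 3 arrays allow is 0.1. A missed threshold does not show that KO and WT were alike there. Absence from the list of that region also fixes these low counts in part, while the shares over all probe sets carry no such selection.

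**Figure D2:**
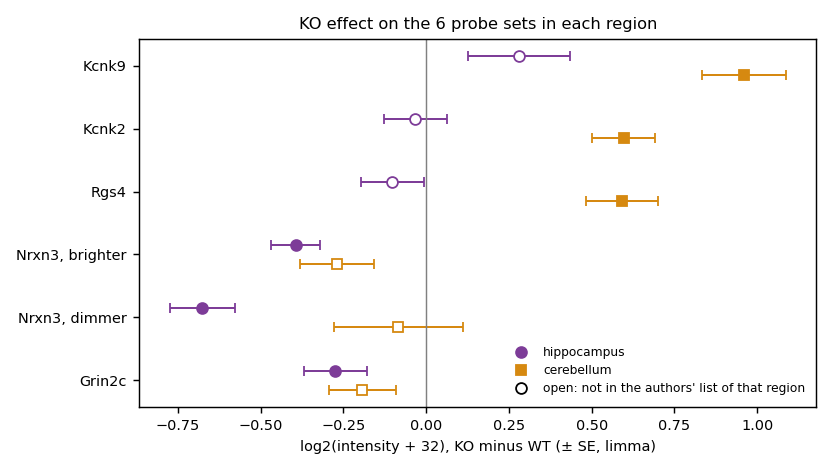
Log2 difference, KO minus WT, with its SE from limma for each of the 6 probe sets in hippocampus (circles) and cerebellum (squares); open marks are the region whose list does not hold the probe set. The open marks lie between -0.27 and 0.28, and the filled ones range from -0.68 to 0.96. The listing shapes both ranges.

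The KO effect of hippocampus minus that of cerebellum was -0.63 ± 0.13 for Kcnk2, -0.69 ± 0.14 for Rgs4 and -0.68 ± 0.21 for Kcnk9 (log2 ± SE over 12 arrays). It was -0.59 ± 0.23 for the dimmer and -0.12 ± 0.14 for the brighter probe set of Nrxn3, and -0.08 ± 0.13 for Grin2c. These differences contain the contrast by which each probe set was listed and are therefore given without a test. Their SE treats the 12 arrays as independent, although per the design text 3 mice of each genotype gave both regions. The deviations of same-numbered hippocampus and cerebellum arrays from their group means had r from -0.273 (KO 3) to 0.577 (KO 1). For the brighter Nrxn3 probe set and Grin2c the effects of both regions lay within 1 SE of each other.

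The sources used here do not say whether the arrays of both regions were normalised together, so levels are set side by side without a test. Rgs4 was 6.98-fold brighter in hippocampus than in cerebellum in KO mice (4759 against 682.1) and 11.5-fold in WT mice (5111 against 442.7). Kcnk2 was 4.68-fold brighter there in KO mice (1430 against 305.4) and 7.66-fold in WT mice (1466 against 191.5). Kcnk9 was 1.36-fold brighter there in KO mice (1286 against 942.9) and 2.27-fold in WT mice (1059 against 466.7). The 3 ratios were thus smaller in KO mice. They contain the cerebellum contrast by which these 3 members were listed, so this is not an independent result. Grin2c ran the other way, at 0.210 times the cerebellar level in KO mice (329.1 against 1568.5) and 0.226 times in WT mice (405.3 against 1794). Nrxn3 was also brighter in cerebellum, at 0.672 (the brighter probe set) and 0.416 (the dimmer) in KO and at 0.729 and 0.638 in WT.

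For all 6 probe sets the arrays of the 2 regions did not overlap in either genotype, but this is common. Of 30761 probe sets tested in a region, hippocampus was above cerebellum on every array for 51.9% in KO and 47.8% in WT, and below for 22.1% and 22.2%. The WT regional difference of Rgs4 (3.44, log2) lay at percentile 99.6 of these probe sets, that of Kcnk2 (2.74) at 98.9 and that of Grin2c (-2.06) at 3.6. Those of Kcnk9 (1.12) and of Nrxn3 (-0.44 and -0.62) lay at 87.8, 19.3 and 16.8. The Kcnk9 probe set, named through a synonym, was thus dimmer in cerebellum, although Kcnk9 is known for cerebellar granule cells. The reason was not tested.

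By mean intensity, Rgs4 and Kcnk2 kept the same order: WT hippocampus, KO hippocampus, KO cerebellum, WT cerebellum, of which the hippocampus groups overlapped and the rest stood apart. For Kcnk9 the order was KO hippocampus, WT hippocampus, KO cerebellum, each overlapping the next, and then WT cerebellum, which stood apart. Grin2c and both probe sets of Nrxn3 were ordered WT cerebellum, KO cerebellum, WT hippocampus, KO hippocampus, with overlap only between the cerebellum groups. The 3 members listed in cerebellum were thus the ones with more signal in hippocampus, and the 3 listed in hippocampus the ones with more signal in cerebellum.

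The other genes of excitability and synapse came from lists of ion channels, receptors, adhesion, vesicle and G-protein genes, and have names here through the authors' lists only. Beside the members, 30 probe sets were named, 19 of them listed in hippocampus and 11 in cerebellum. None passed limma in either region (0). An unadjusted p under 0.05 was reached by all 30 where they were listed, which the listing by fold and p on these arrays fixes, as it does the medians that follow. Of the 19 listed in hippocampus 18 were lower in KO, with a median log2 difference of -0.43 against 0.01 over all probe sets tested. Of the 11 listed in cerebellum 7 were higher in KO, with a median of 0.44 against -0.02 over all. In the whole short lists, 152 of 278 probe sets were lower in KO hippocampus and 267 of 367 higher in KO cerebellum.

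Voltage-gated potassium channels were among those listed as lower in KO hippocampus. Kcnc1, a channel of fast-spiking neurons, had by the probe set with the larger difference a log2 difference of -0.62 ± 0.11 in hippocampus and -0.26 ± 0.11 in cerebellum (SE). Kcnma1, which is gated by calcium, had -0.43 ± 0.09 in hippocampus and -0.30 ± 0.15 in cerebellum, and Kcnd2, which carries the A-type current, had -0.35 ± 0.10 and -0.30 ± 0.23. The calcium channel subunit genes Cacna1a and Cacna2d1 (its brighter probe set) had -0.43 ± 0.12 and -0.26 ± 0.08 in hippocampus. In cerebellum they had 0.13 ± 0.09 and -0.19 ± 0.14. The dimmer probe set of Cacna2d1 had -0.51 ± 0.11 in hippocampus and 0.04 ± 0.20 in cerebellum, so its cerebellar sign differed between probe sets. All of these were listed in hippocampus alone.

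Among adhesion and scaffold genes Homer3, a postsynaptic scaffold, had 0.27 ± 0.09 in hippocampus, where it was listed, and -0.16 ± 0.10 in cerebellum. Its relative Homer2 (its brighter probe set) had 0.16 ± 0.10 in hippocampus and 0.44 ± 0.10 in cerebellum, where it was listed. Shank3, another postsynaptic scaffold, was listed in cerebellum at -0.33 ± 0.07, and had -0.12 ± 0.10 in hippocampus.

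Of the presynaptic genes, Pclo, a scaffold of the active zone, had negative differences by both probe sets in both regions. The probe set listed in cerebellum had -0.36 ± 0.08 there and -0.40 ± 0.12 in hippocampus, where every KO array was below every WT array (limma, unadjusted p = 0.0127 and adjusted p = 0.9999; exact permutation p = 0.1). The probe set listed in hippocampus had -0.33 ± 0.11 there and -0.37 ± 0.17 in cerebellum, with overlapping groups. Syt2, a calcium sensor of fast release, was listed in hippocampus at -0.51 ± 0.09 and had -0.11 ± 0.10 in cerebellum.

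Among receptors and G-protein genes, the glycine receptor subunit gene Glra2 and the GABA transporter gene Slc6a11 were listed in cerebellum at 0.79 ± 0.17 and 0.77 ± 0.14, with 0.25 ± 0.15 and -0.05 ± 0.22 in hippocampus. Gng4, a G-protein gamma subunit, and Rgs17, a relative of Rgs4, had 0.71 ± 0.15 and 0.25 ± 0.09 in cerebellum, where they were listed, and -0.15 ± 0.12 and -0.02 ± 0.12 in hippocampus. The sodium channel subunit gene Scn3b had 0.97 ± 0.20 in cerebellum, where it was listed, and 0.15 ± 0.15 in hippocampus. Of the activity-regulated list 0 of 25 genes had a name here.

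In the region that did not list them, 18 of the 19 hippocampus-listed probe sets were tested in cerebellum, where 13 had a negative and 5 a positive difference and 0 had an unadjusted p under 0.05. Of the 11 cerebellum-listed ones, 7 had a negative and 4 a positive difference in hippocampus, and 1 had an unadjusted p under 0.05 (Pclo, above). The median log2 difference was -0.12 for the former in cerebellum, against -0.02 over all probe sets tested. For the latter in hippocampus it was -0.05, against 0.01 over all. The 19 and 11 probe sets stand for 15 and 9 genes, so some genes count more than once. KO and WT were apart for 1 of the 18 (Cacna1a, higher) and 2 of the 11 (lower, Pclo among them), against the shares over all probe sets given above. Here too absence from the list of that region fixes the counts in part.

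The 7 of these probe sets that were listed as higher in KO cerebellum had more signal in hippocampus than in cerebellum in both genotypes, as did Kcnk9, Kcnk2 and Rgs4. Of the 5 with a positive difference in cerebellum that were not listed there, 3 did. Of the 18 listed as lower in KO hippocampus, 7 had more signal in cerebellum in both genotypes, as Nrxn3 and Grin2c did. Over the whole short lists, 89.1% of the 267 probe sets listed as higher in KO cerebellum were brighter in WT hippocampus, against 68.0% of all 30761 probe sets. The listing and the regional level both use the WT cerebellum arrays, so the shares are not independent of each other. For the 152 listed as lower in KO hippocampus, 22.4% were brighter in WT cerebellum, against 32% of all.

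**Figure D3:**
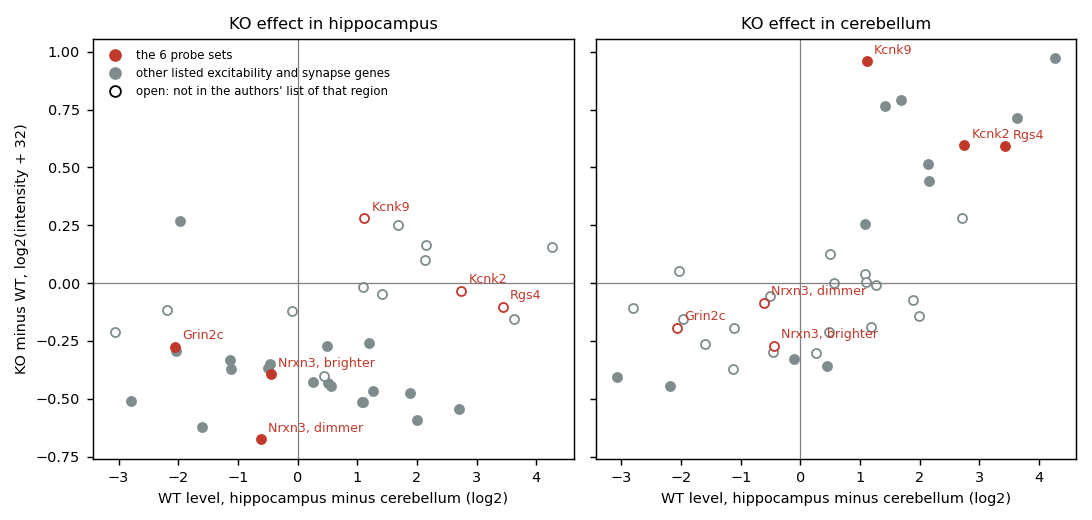
Log2 difference, KO minus WT, in hippocampus (left) and cerebellum (right) against the WT level of hippocampus minus cerebellum (log2) for the 6 probe sets (red) and 30 others of excitability and synapse genes (grey); filled marks are listed in the region shown. In the right panel every filled mark above 0 lies to the right of 0.

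Glial marker genes, also named only through the authors' lists, are given beside the members. In cerebellum, where Kcnk9, Kcnk2 and Rgs4 were listed, 7 of 15 microglia markers were named by 10 probe sets and 6 of 14 astrocyte markers by 12. All 10 and 7 of the 12 had KO arrays above all WT arrays, against 5.3% of all probe sets, but these are the ones listed there as higher, so the listing fixes the count. The 5 astrocyte probe sets not listed there, of Slc4a4 and Aqp4, were named because they were listed as lower in KO hippocampus. All 5 had negative differences in cerebellum, with 0 apart, and their absence from the cerebellum list fixes this in part. The summed intensity of the microglia markers was 5074 to 5525 in KO and 2653 to 3289 in WT, and that of the astrocyte markers 22323 to 24097 in KO and 18600 to 19609 in WT. The oligodendrocyte markers (4 of 13 genes) summed to 15607 to 18576 in KO cerebellum and 11664 to 12485 in WT cerebellum. Of their 6 probe sets 5 were listed there as higher. The listing thus enters this sum, as it does those of the microglia and astrocyte markers. No defining marker was at 0. Their part in the member values was not tested.

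In hippocampus, where Nrxn3 and Grin2c were listed, the astrocyte markers summed to 28699 to 30619 in KO and 27523 to 29313 in WT, with 4 of 12 probe sets wholly higher and 5 wholly lower in KO, all 9 of them listed there. Of the 9 microglia probe sets not listed in hippocampus, 3 were wholly higher in KO (4.48% of all probe sets). Of the 5 oligodendrocyte ones, 3 were wholly lower (4.44%). All 9 and all 5 were named because they were listed as higher in KO cerebellum, so they are selected probe sets. The microglia markers summed to 15675 to 16266 in KO and 13005 to 15001 in WT, and the oligodendrocyte markers to 17674 to 18223 in KO and 18420 to 27066 in WT. Of neuron markers, Vip and Cort of interneurons averaged 1541 and 670.5 in KO hippocampus, against 1185 and 444.6 in WT hippocampus, and were listed there as higher. The interneuron and Purkinje cell marker lists otherwise held Cck and Aldoc, among others, and that of granule cells held Kcnc1, Neurod1 and Grin2c itself. Their part was not tested either.

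The members also differed in how they moved together over the 12 arrays once the mean of each region was subtracted. Kcnk2 and Rgs4 correlated at r = 0.94, Kcnk9 with Kcnk2 at 0.87 and with Rgs4 at 0.76, and the 2 probe sets of Nrxn3 at 0.80. These values include the KO difference by which the probe sets were listed. After the mean of each group was subtracted instead, r was 0.66 for Kcnk2 and Rgs4, 0.63 for the 2 probe sets of Nrxn3, 0.44 for Kcnk9 and Kcnk2 and 0.10 for Kcnk9 and Rgs4. The 12 arrays share the array structures given above, so these are descriptions.

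The named probe sets of other genes with the most similar pattern over the 12 region-centred arrays were, for Kcnk9, Timp2 (r = 0.96) and Itih3 (0.95) after Minar2 (0.97). For Kcnk2 they were Plppr1 (0.97), Cd24a (0.955) and Fgf7 (0.95), and for Rgs4 they were Shroom2 (0.94), Kcnk2 (0.94) and Zdbf2 (0.935). For the brighter Nrxn3 probe set they were Adgrl3 (0.985), Car10 (0.91) and Nudt19 (0.90), and for the dimmer they were Atp8a1 (0.935), Ednrb (0.91) and Slc4a4 (0.90). For Grin2c they were Car15 (0.90), Ercc1 (0.82) and Syt2 (0.80), with 12 and 19 of 30760 probe sets, mostly unnamed, above the last 2. The likeness is Pearson's r over 12 arrays, without a p, among 535 or 536 probe sets that carry a name because they were listed.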

How the data were processed

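For each region the authors deposited a table of linear intensity by array, computed in dChip per the design text; the sources used here give neither the version nor the array normalization. The authors' short lists add, for 278 probe sets in hippocampus and 367 in cerebellum, a gene name, a signed fold change (a score that is negative where KO is lower) and an unadjusted p-value, per the file headers. The deposited matrix of the series equals the regional tables (largest difference 0), no pair of arrays was identical (0) and no sample column was unused (0).

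Names exist only for the 610 listed probe sets, of which 538 have 1 symbol after updating through RefSeq (GRCm38.p6). Intensities were analysed as log2(value + 32) with limma 3.58.1 in R 4.3.3 (intensity trend, Benjamini-Hochberg), on probe sets above the 40th percentile of a region; every member passed this filter in both regions. Hippocampus and cerebellum effects were compared over 23283 probe sets. The 6 probe sets and the gene lists were chosen with earlier results of these data known. Named were the members, Ercc1, up to 4 probe sets per pathway list with the smallest p in the region that did not list them, and the 3 most similar named probe sets per member; marker genes and list exceptions were named after their values were seen, and some genes that the rule names are not reported here. No label ties mice to litters, and p-values measure the spread between arrays. Same-numbered KO and WT arrays did not all deviate together (r from -0.526 to 0.688), and the numbers were not used as pairs. With 3 arrays per group these r cannot exclude that they share a litter. Alternatives changed the pseudocount, filter, normalization, trend, arrays in the fit, block, covariate and each array. Tables were handled in pandas 2.3.3 and NumPy 2.4.6 under Python 3.11.15, with SciPy 1.17.1 for permutations.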

Additional observations from a re-analysis of the deposited data

How the results depend on the processing

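Over 282 alternative values of the 18 results on members (each probe set in both regions and the regional difference), 276 kept their sign and their side of the threshold. Sign changed for 4, all where an array was left out: Kcnk2 in hippocampus (range over left-out arrays -0.093 to 0.029, 0.0077 without KO 2 and 0.029 without WT 2) and the dimmer Nrxn3 probe set in cerebellum (range -0.27 to 0.08, 0.015 without KO 2 and 0.083 without WT 3). The other 2, Kcnk9 (0.96) and Kcnk2 (0.60) in cerebellum, passed with 1 fit over all arrays, which is no test of them, since they were listed in that contrast. The replicate block treats same-numbered arrays as pairs, which no label states. With it no member passed, and it gave 0 calls in each region and 1 lower call for the regional difference.

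The count of probe sets past the threshold, 0 in each direction in both regions, became 1 higher and 5 lower in hippocampus and 31 higher and 3 lower in cerebellum with 1 fit over all arrays. With the leading residual component as a covariate it became 5 higher and 3 lower in hippocampus, 1 and 1 in cerebellum, and 2 and 2 for the regional difference. Leaving out arrays gave 0 to 2 higher and 0 to 3 lower in hippocampus (2 and 3 without WT 2), and 0 to 2 higher and 0 lower in cerebellum (2 without KO 1, 2 without WT 2 and 1 without WT 1). The regional difference, with 0 higher and 1 lower, had 1 higher with pseudocount 16, 0 lower without a filter, with quantile normalization or without trend, and 0 to 1 higher and 0 to 1 lower when an array was left out; the 1 lower call held only without WT 2 of cerebellum. The cause was not tested. The added 32 weighs most where intensities are low, as for Kcnk2 in cerebellum and Grin2c in hippocampus.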
